A study of Mus musculus with 18 samples.

Results

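Amino acid transport across the plasma membrane and the transfer of amino groups from branched-chain amino acids were described here through 10 genes. They are the branched-chain transaminases Bcat1 and Bcat2, the transporter genes Slc7a5, Slc3a2, Slc43a1, Slc1a5, Slc1a4, Slc38a2 and Slc7a1, and the transcription factor gene Atf4. The genes were taken by name from the 28374 genes present in the tables of both strain genomes, and all 10 were found. Bcat1 was included because it was among the genes with the largest rise after stimulation in these same samples, so its change is given as a description with no test. The other 9 genes were taken for their function.

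The cells were CD23+ B cells from the spleens of female F1 mice of a 129S1 by Cast cross. All of these mice were Xist+/-, an arrangement in which the X chromosome inherited from Cast is always the inactive one. 3 samples were naive cells with no treatment. The other 3 had been stimulated in culture for 24 h with 1 µM CpG, a DNA ligand of the receptor TLR9. RNA was sequenced as total RNA, and reads assigned to the 129 and to the Cast genome were counted separately, so every gene has a 129 and a Cast value in each sample. All 10 genes lie on autosomes, where both alleles can be active, with Slc43a1 on chromosome 2, Slc7a1 on 5, Bcat1 on 6, Slc1a5 and Bcat2 on 7, Slc7a5 on 8, Slc1a4 on 11, Atf4 and Slc38a2 on 15 and Slc3a2 on 19. The ages of the mice are not given in the sources used here. Nothing in the labels says that the samples came from separate animals, so p-values measure the spread between these samples, which may be technical.

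As background, Slc7a5 (LAT1) exchanges large neutral amino acids such as leucine, and it reaches the cell surface only when bound to the glycoprotein encoded by Slc3a2 (CD98 heavy chain). Slc43a1 (LAT3) carries the same class of amino acids without exchange, Slc1a5 (ASCT2) and Slc1a4 (ASCT1) are sodium-dependent exchangers of small neutral amino acids, Slc38a2 (SNAT2) is a sodium-coupled importer, and Slc7a1 (CAT-1) takes up arginine and lysine. BCAT1 in the cytosol and BCAT2 in mitochondria move the amino group of leucine, isoleucine and valine to 2-oxoglutarate, and activated lymphocytes are known to raise the uptake of amino acids. ATF4 is a transcription factor translated preferentially when eIF2 is phosphorylated, and several of these transporter genes are known targets of it.

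Promoter sequence is shown for the gene with the largest rise and for the 1 tested transporter whose window held an ATF4-type element. RefSeq windows on GRCm38.p6, from 250 bases before to 50 bases after a start site, were matched for 8 of the 10 genes and gave 11 windows. Slc7a5 and Slc1a5 had no entry. The windows were searched on both strands for the C/EBP-ATF element TGATGNAA, a composite site bound by ATF4 with a C/EBP partner, and for the E-box CACGTG, the core bound by MYC and related factors. Neither motif overlaps the other. The element occurred in 3.97% and the E-box in 7.15% of all 32851 RefSeq windows of this length. Slc1a4 lies on the minus strand, and its window, chr11:20332664-20332963, held the C/EBP-ATF element at position -4 from the start, marked in capitals, where it reads as its reverse complement.
Slc1a4: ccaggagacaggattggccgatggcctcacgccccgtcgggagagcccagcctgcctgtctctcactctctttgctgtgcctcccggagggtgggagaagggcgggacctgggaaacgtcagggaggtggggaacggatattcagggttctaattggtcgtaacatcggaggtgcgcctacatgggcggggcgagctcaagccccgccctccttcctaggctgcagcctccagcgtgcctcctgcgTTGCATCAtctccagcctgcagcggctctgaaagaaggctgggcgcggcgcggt
Bcat1, also on the minus strand, had a window at each of 2 start sites, the first at chr6:145048763-145049062 and the second at chr6:145076108-145076407.
Bcat1 start A: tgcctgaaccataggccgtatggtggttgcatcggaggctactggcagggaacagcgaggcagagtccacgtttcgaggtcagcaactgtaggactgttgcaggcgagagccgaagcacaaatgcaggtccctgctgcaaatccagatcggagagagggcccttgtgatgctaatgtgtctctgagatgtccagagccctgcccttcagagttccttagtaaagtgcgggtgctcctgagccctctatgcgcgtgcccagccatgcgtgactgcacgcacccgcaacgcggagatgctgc
Bcat1 start B: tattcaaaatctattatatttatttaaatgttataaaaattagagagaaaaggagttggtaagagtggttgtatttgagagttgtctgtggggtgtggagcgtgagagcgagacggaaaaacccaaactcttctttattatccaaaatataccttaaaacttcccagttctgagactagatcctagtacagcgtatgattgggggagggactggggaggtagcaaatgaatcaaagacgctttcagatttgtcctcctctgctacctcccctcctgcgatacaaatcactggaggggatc
Neither Bcat1 window held either motif, so no base is in capitals, and this says only that those letters are not in these windows. The GC content was 58.7% in the first and 41.0% in the second. Among the other windows, Slc43a1 held 1 E-box at position -64, and Slc3a2, Slc38a2, Slc7a1, Atf4 and Bcat2 held neither motif. The sequences are those of the mouse reference strain, not of 129S1 or Cast.

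The libraries held 1987266 to 2928236 gene reads in the 129 tables and 2465073 to 3321753 in the Cast tables. Summed alleles put 51.9% to 53.6% of autosomal reads on the Cast genome in the 6 samples. B cell markers were present in all 6, at a summed 6617 to 8527 CPM (read counts scaled to library size, here to all gene reads) in naive and 2325 to 2830 in stimulated samples, and 7 of 7 were lower after CpG. Macrophage markers stood at a summed 3308 to 6842 CPM in naive and 26.4 to 33.9 in stimulated samples, with all 15 genes of at least 30 reads lower and Fcgr1 at 0 after CpG. Summed T cell markers were 33.5 to 48.1 in naive and 0.320 to 0.506 in stimulated samples. Most of the naive sum was Cd4, at 41.2, 21.5 and 29.9 CPM, and no other gene of that list exceeded 5.12 CPM. Granulocyte markers went from 4.33 to 17.3 down to 0.337 to 0.648, erythroid markers from 27.4 to 59.1 down to 0.480 to 0.674, and NK cell markers from 10.7 to 15.6 down to 2.19 to 4.64. These markers move with CpG in the same samples as every change below, and their part in those changes was not tested. In bulk RNA, fewer cells of a type and less RNA per cell cannot be told apart.

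Bcat1, which encodes the cytosolic transaminase, went from almost no reads to a high count on each allele. Naive replicates 1, 2 and 3 held 1, 0 and 0 reads of the 129 allele, against 459, 600 and 513 after CpG. For the Cast allele the counts were 1, 16 and 4 before and 1046, 1234 and 1111 after CpG. No naive sample came near a stimulated one on either allele, and 16 of the 21 naive Cast reads came from replicate 2. Scaled to library size, the Cast allele stood at 2.62 ± 2.81 CPM (SD, n = 3) in naive and 346 ± 29.7 CPM (SD, n = 3) in stimulated cells. With both alleles summed, Bcat1 was 7.50 log2 units higher (standard error 0.36, 95% interval 6.68 to 8.32), which placed it at rank 21 of 10343 genes by size of rise. Of the pooled reads, 22 were naive and 4963 stimulated, a ratio of 183 at equal depth (exact 95% interval 121 to 292, counting error only). Leaving out 1 library moved the summed value most without naive replicate 2 (8.71) and without naive replicate 1 (7.04). In the reference annotation Bcat1 is overlapped by the antisense genes Gm26666, with 0 reads in every sample, and Gm15687, with 0 in the 129 tables and not used here in the Cast tables, and by the rRNA gene Gm23071, with at most 11 reads in a sample. Whether the counting used strand is not given in the sources used here.

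Among 6609 other autosomal genes with a mean of at least 100 reads, the 3 whose level followed that of Bcat1 most closely were Smpd4, a sphingomyelinase gene (Pearson r = 0.993), Diaph3, a formin gene (0.990), and Mcm2, a subunit of the replicative helicase (0.990). The correlation was taken over the 12 allele-by-sample values of log2(CPM + 1), which share 6 libraries and fall into naive and stimulated sets, so it is a description with no test. Diaph3 held 11 to 15 naive and 168 to 248 stimulated reads on the 129 allele.

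The mitochondrial counterpart Bcat2 could hardly be measured. It had 2 reads in all 3 naive and 4 in all 3 stimulated samples on the 129 allele, and 1 and 3 on the Cast allele. Summed over alleles, 3 naive reads stood against 7 stimulated ones, a ratio of 1.89 with an exact 95% interval of 0.432 to 11.3. That interval holds no change as well as a large rise, so a change of Bcat2 was not detectable at this depth. The counts are of reads assigned to a strain, by a method not given in the sources used here. A low count therefore does not show a low transcript level, and levels are not compared between genes here.

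**Figure D1:**
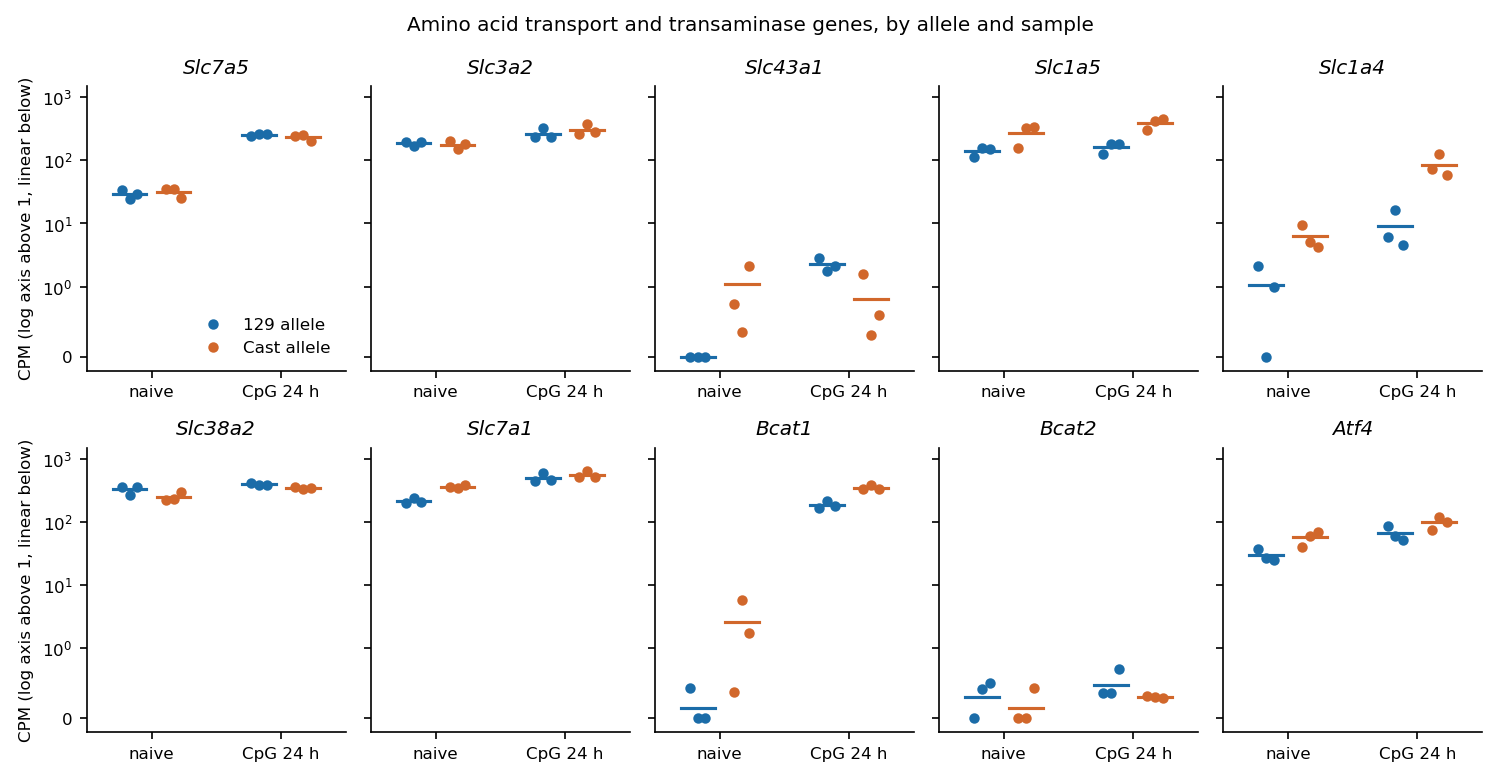
Library-size-scaled level (CPM, on an axis that is logarithmic above 1 and linear below) of each gene in each of the 3 naive and 3 stimulated samples, drawn separately for the 129 and Cast alleles, with 1 point per sample and a line at the mean of 3. Bcat1 separates the groups most widely, from 0.377 to 5.77 CPM in naive to 329 to 381 CPM in stimulated samples on the Cast allele, while the groups overlap for Slc1a5 on both alleles.

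Of the 10 genes, 8 held enough reads to be tested, and Bcat2 and Slc43a1 did not. Bcat1 on both alleles and Slc1a4 on the 129 allele passed the filter on low counts only through the stimulated samples. Leaving out Bcat1, 7 genes were tested for the CpG change. On the 129 allele 5 of them were called higher and none lower at an edgeR adjusted p of 0.05, where 28.2% of all tested genes rose and 27.0% fell (55.2% in all). Without Slc1a4, 4 of 6 were called there, and the median change given next becomes 0.83. On the Cast allele 6 of 7 rose and none fell, where 30.7% rose and 31.5% fell (62.2% in all). With alleles summed, 6 of 7 rose and none fell, against 34.2% and 34.4% of all tested genes (68.7% in all). The median change of the 7 was 1.15 log2 units on the 129 allele, 0.78 on the Cast allele and 0.89 with alleles summed, and the medians over all tested genes were -0.01, -0.04 and -0.01. In all 3 fits every stimulated sample lay above every naive one for 6 of the 7, where 32.6%, 33.7% and 36.8% of all tested genes did so. On the 129 allele those 6 include Slc1a4, which passed the filter only through its stimulated samples. Bcat1 was chosen on this same change and the others with earlier results of these samples known, so nothing is read from these shares.

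Slc7a5, the large neutral amino acid exchanger, rose on both alleles. With alleles summed it stood at 41.1, 35.9 and 32.4 CPM before CpG and at 299, 313 and 279.9 CPM after it. The groups lay far apart, with the lowest stimulated sample several times above the highest naive one. The rise was 3.03 log2 units (standard error 0.12), an 8.14-fold change with an edgeR adjusted p of 1.24e-07. It was 3.13 (0.15) on the 129 allele and 2.87 (0.17) on the Cast allele, with adjusted p-values of 1.35e-05 and 1.50e-06.

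Slc3a2, whose product is the obligate partner of the Slc7a5 protein, rose by much less. Its summed level was 236, 192 and 219 CPM in naive and 303, 424 and 315 CPM in stimulated samples. The groups did not overlap, and stimulated replicate 2 was the highest. The rise was 0.69 log2 units (standard error 0.15, 1.61-fold, edgeR adjusted p = 0.00221). The 95% interval, 0.36 to 1.02, did not overlap that of Slc7a5, 2.76 to 3.29. On the Cast allele the rise was 0.78 (adjusted p = 0.00294). On the 129 allele it was 0.50 (adjusted p = 0.0271), and there the call was lost without naive replicate 1, 2 or 3 (0.0535, 0.0805 and 0.0592) or without stimulated replicate 2 (0.0553).

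Slc43a1, the other large neutral amino acid transporter, had 0 reads of the 129 allele in all 3 naive samples, against 8, 5 and 6 after CpG. Against a floor of 3 reads over the naive group, the pooled ratio at equal depth is 5.03, with no counting error taken for the stimulated reads. On the Cast allele 2, 1 and 5 naive reads stood against 5, 1 and 2 stimulated reads, a ratio of 0.792 (exact 95% interval 0.259 to 2.42). The groups were apart on 1 allele and overlapped on the other, at single-digit counts throughout.

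Slc1a4, the exchanger of alanine, serine, cysteine and threonine, was higher after CpG on both alleles, from a low level. Its summed level was 7.16, 3.23 and 3.29 CPM in naive and 50.5, 89.4 and 41.2 CPM in stimulated samples. Every stimulated sample lay far above every naive one, and stimulated replicate 2 stood highest. The rise was 3.71 log2 units (standard error 0.41, 13.1-fold, edgeR adjusted p = 7.47e-05). The Cast allele, which held most of the reads, rose by 3.74 (0.38), adjusted p = 2.90e-05. Reads of the 129 allele numbered 5, 0 and 2 before and 17, 46 and 13 after CpG, a pooled ratio of 8.62 at equal depth (exact 95% interval 3.99 to 22.2, counting error only). This allele was let in by its stimulated samples alone, so that ratio is a description with no test.

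Slc1a5, the glutamine exchanger of the same family, had overlapping groups. Its summed level was 162, 289.9 and 299 CPM in naive and 264, 373 and 404 CPM in stimulated samples. Replicate 1 was the lowest of its group both before and after CpG, and stimulated replicate 1 lay below naive replicates 2 and 3. The difference of 0.47 log2 units (standard error 0.25, 95% interval -0.11 to 1.06) did not pass (edgeR adjusted p = 0.130), nor did 0.22 on the 129 allele (0.369) or 0.52 on the Cast allele (0.125). Same-numbered naive and stimulated samples deviated together across genes. A fit that took the replicate number as a block called Slc1a5 with alleles summed (0.50, adjusted p = 0.00131) and on the Cast allele (0.57, adjusted p = 0.00172). Under that block 70.3% and 66.3% of all tested genes passed in either direction. On the 129 allele the block changed no call among the 7, where 65.1% passed.

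Slc38a2, the sodium-coupled importer, changed least among the genes that passed. Its summed level was 339, 295 and 386 CPM in naive and 466, 424 and 445 CPM in stimulated samples, with no overlap between groups. The rise was 0.39 log2 units (standard error 0.12, 1.31-fold, edgeR adjusted p = 0.0149), and it did not pass without stimulated replicate 1 (0.0609). On the Cast allele it was 0.45 (adjusted p = 0.0182), and 0.0504 without naive replicate 1. On the 129 allele the difference was 0.26 (adjusted p = 0.146).

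Slc7a1, the arginine and lysine carrier, rose on both alleles. Its summed level was 332, 347 and 360.1 CPM in naive and 579, 745 and 603 CPM in stimulated samples. The naive samples lay close together, below all stimulated ones. The summed rise was 0.89 log2 units (standard error 0.12, 1.86-fold, edgeR adjusted p = 1.25e-04). It was 1.22 (0.15) on the 129 allele and 0.63 (0.13) on the Cast allele, with adjusted p-values of 3.72e-04 and 0.00271.

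Atf4 mRNA, which encodes the transcription factor, rose on both alleles. Its summed level was 45.8, 53.2 and 58.2 CPM in naive and 97.9, 112 and 93.1 CPM in stimulated samples. The groups did not overlap. The rise was 0.95 log2 units (standard error 0.13, 1.93-fold, edgeR adjusted p = 1.23e-04), made up of 1.15 (0.25, adjusted p = 0.00610) on the 129 allele and 0.79 (0.23, adjusted p = 0.0147) on the Cast allele. These are mRNA levels and carry no measure of ATF4 protein.

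By summed change the order was Bcat1, Slc1a4, Slc7a5, Atf4, Slc7a1, Slc3a2, Slc1a5, Slc38a2. Bcat1 stands first because it was chosen for its rise. Among the other 7, the 95% intervals of neighbours in that order were separate between Slc7a5 and Atf4 and overlapped for every other neighbouring pair.

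**Figure D2:**
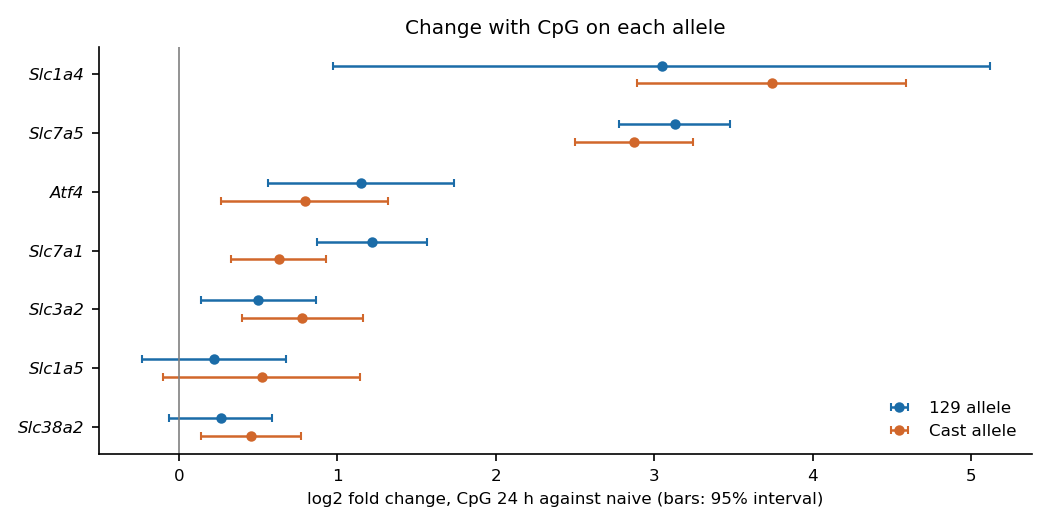
Change from naive to stimulated cells (log2 fold change, with 95% intervals) of the 7 tested genes other than Bcat1, drawn separately for the 129 and Cast alleles. Slc7a5 (3.13 and 2.87) and Slc1a4 (3.05, with few naive reads, and 3.74) lie furthest to the right on the 129 and Cast alleles, and the intervals of Slc1a5 include 0 on both. The Slc1a4 point and interval on the 129 allele are a description with no test.

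Which allele supplied the reads was asked next, as the share of allele-assigned reads that fell to Cast in each sample. In naive cells 4 of the 8 tested genes differed between alleles at an edgeR adjusted p of 0.05, all toward Cast, where 15.2% of all tested genes did so. Bcat1 was 1 of these on 22 naive reads, and without it 3 of 7 were called. In stimulated cells 5 of 8 did, all toward Cast, again where 15.2% of all tested genes did so. These 5 were Slc1a4, Slc1a5, Slc7a1, Bcat1 and Slc3a2, and the first 4 of them were the genes called in naive cells. With each allele's library scaled to its own total, the median log2 ratio of Cast to 129 over all genes moved from 0.12 to -0.03 in naive cells and from 0.12 to -0.04 in stimulated cells. That scaling moved the part of the allele calls that lay toward Cast from 60.8% to 43.7% in naive cells and from 60.6% to 43.1% in stimulated cells. How reads were assigned to a strain, and how many sites tell the strains apart in each gene, are not given in the sources used here.

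Reads of Slc1a4 were mostly Cast in every sample. Its Cast share was 83.3%, 100% and 83.3% in the naive samples, from 12 to 30 reads each, and 93.1%, 89.7% and 93.8% in the stimulated samples. All 6 samples lay far above 50%. The log2 ratio of Cast to 129 was 2.81 (standard error 0.54, edgeR adjusted p = 0.00829) in naive and 3.55 (0.34, adjusted p = 3.01e-04) in stimulated cells. Slc1a5 had a Cast share of 61.8%, 70.3% and 72.5% in naive and 73.2%, 72.6% and 74.8% in stimulated samples. Its lowest sample was naive replicate 1, and the log2 ratio was 1.11 (0.13, adjusted p = 8.58e-04) in naive and 1.48 (0.13, adjusted p = 1.92e-04) in stimulated cells.

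Bcat1 reads in the stimulated samples were 69.5%, 67.3% and 68.4% Cast, a mean of 68.4% ± 1.11 (SD, n = 3), and the 3 samples were close to each other. The log2 ratio there was 1.11 (standard error 0.28), with an edgeR adjusted p of 0.0343. It did not pass without any 1 of the stimulated samples (lowest 0.118), without naive replicate 3 (0.0591), or with each allele scaled to its own total (0.0513). The allele fit estimates 1 spread per gene over naive and stimulated libraries together. These p-values therefore do not measure the spread of the stimulated samples alone, and the few naive Bcat1 reads enter them. In naive cells 21 of 22 reads were Cast, a share of 95.5% with a Wilson 95% interval of 78.2% to 99.2%, and 16 of these came from replicate 2. The naive ratio of 3.92 (0.92) had an edgeR adjusted p of 0.0279. It was 0.244 without that replicate, 0.0964 without naive replicate 3, and 0.0519 to 0.0561 without 1 of the stimulated samples.

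The Cast share of Slc7a1 went down with CpG, from 67.1%, 62.4% and 68.5% in naive to 57.1%, 55.3% and 56.9% in stimulated samples. No stimulated sample overlapped a naive one, and the mean difference was -9.55 percentage points. In an exact two-sided permutation test with 3 against 3 samples the p was 0.1, the smallest that this design allows. The log2 ratio of Cast to 129 was 0.96 (standard error 0.08, edgeR adjusted p = 1.96e-04) in naive and 0.37 (0.08, adjusted p = 0.0141) in stimulated cells. The stimulated call was lost without stimulated replicate 1 (0.0713) or 3 (0.0760) and with own-total scaling (0.116).

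The Cast share of Slc3a2 lay the other way, at 53.9%, 50.6% and 52.1% in naive and 56.5%, 57.1% and 58.0% in stimulated samples. The groups did not overlap (exact two-sided permutation p = 0.1). Only the stimulated ratio passed, at 0.42 (standard error 0.07, edgeR adjusted p = 0.00331), against 0.13 in naive cells (0.214), which became -0.03 with own-total scaling. The shares of Slc1a5 also did not overlap between groups, though by a narrow margin (exact two-sided permutation p = 0.1).

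Slc7a5 and Slc38a2 had no allele call in either state. Slc7a5 shares were 54.1%, 62.2% and 50.8% in naive and 53.2%, 52.8% and 48.2% in stimulated samples. Its log2 ratio was 0.34 in naive and 0.08 in stimulated cells, and the latter became -0.09 with own-total scaling. Slc38a2 shares ran from 41.3% to 49.7% in naive and from 49.0% to 51.4% in stimulated samples. Its ratio was -0.19 in naive cells (edgeR adjusted p = 0.227, and 0.0297 with own-total scaling) and 0.00 in stimulated cells, where it became -0.16 with own-total scaling.

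Atf4 differed between replicates more than between states. Its Cast share was 55.7%, 72.3% and 76.4% before CpG and 50.1%, 70.1% and 69.4% after it. Replicate 1 was low in both groups and replicates 2 and 3 were high in both. The log2 ratio was 1.13 (standard error 0.35, edgeR adjusted p = 0.0677) in naive and 0.81 (0.34, adjusted p = 0.144) in stimulated cells, and the naive ratio passed without naive replicate 1 (0.0355) or stimulated replicate 1 (0.0306), and the stimulated ratio without stimulated replicate 1 (0.0464).

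**Figure D3:**
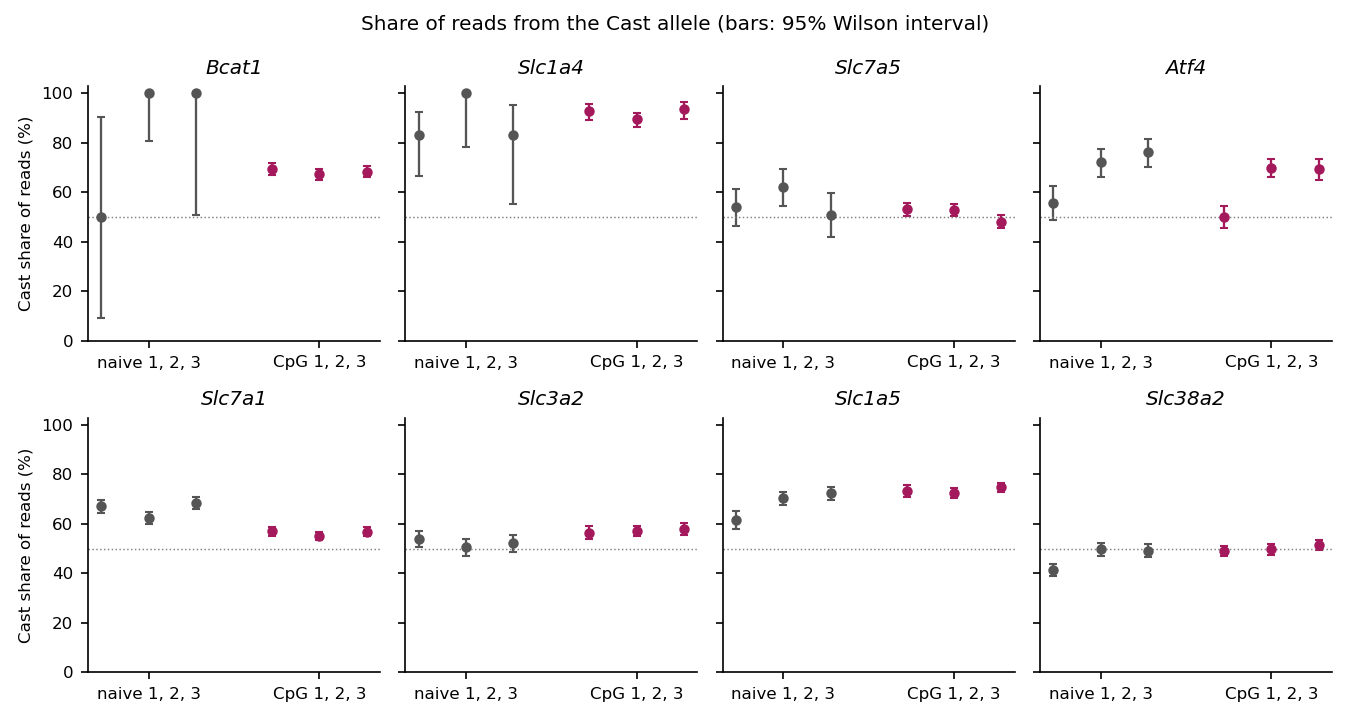
Cast share of allele-assigned reads (percent) in each of the 3 naive and 3 stimulated samples, 1 point per sample with its 95% Wilson interval (counting error only), for the 8 tested genes. Slc7a1 moves down from 62.4% to 68.5% in naive to 55.3% to 57.1% in stimulated samples, while the Atf4 points of replicate 1 lie below the others in both groups.

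Whether the allele ratio itself differed between naive and stimulated cells was tested as an interaction. None of the 8 genes passed in edgeR, where 1.04% of all tested genes did. An unadjusted p below 0.05 was reached by 3 of the 8, and by 2 of 7 without Bcat1. The share of all tested genes below that unadjusted level is not given here, so nothing is read from these counts. The 3 were Slc7a1 (change of the log2 ratio -0.58, standard error 0.12, adjusted p = 0.0789), Slc3a2 (0.29, 0.09, adjusted p = 0.265) and Bcat1 (-2.80, 1.01). The Bcat1 value rests on 22 naive reads and on the change it was chosen for, so it is a description, and it was -5.43 without naive replicate 1. With the replicate number as a block, 3 of the 8 passed, where 7.96% of all tested genes did, and without Bcat1 it was 2 of 7. The 2 were Slc7a1 (adjusted p = 4.55e-06) and Slc1a5 (0.0443). In the blocked fit Atf4 also passed in naive (8.52e-10) and stimulated cells (1.65e-08) and Slc38a2 in naive cells (0.0286), where 44.5% and 45.3% of all tested genes passed in the 2 states.

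The surrounding pathway was described through 6 lists of other genes, with alleles summed, where 34.2% of all tested genes rose and 34.4% fell. Of the 25 genes that the naming rule picked from these lists, 23 were called in the same direction on both alleles. They were picked for large calls in the sum of these same 2 alleles, so nothing is read from that count. The largest list by members was that of amino acid transporters outside the 10 genes. Of its 45 genes found in both tables, 18 were tested, 4 were called higher and 12 lower, with a median of -1.11 log2 units. Of the 18, 6 met the filter on low counts in only 1 group (Slc7a3 and Slc43a3 after CpG, Slc1a2, Slc1a3, Slc7a2 and Slc7a8 before it), so their direction followed from the filter. Among the other 12, 2 rose and 8 fell, with a median of -0.91. Slc38a1, a sodium-coupled glutamine transporter related to Slc38a2, rose from 421 ± 34.5 to 634 ± 42.2 CPM (SD, n = 3 each, log2 change 0.59, edgeR adjusted p = 8.26e-04). By allele it passed for Cast (0.81, adjusted p = 9.26e-04) and not for 129 (0.29, adjusted p = 0.148). The other genes called higher, named after their values were seen, were Slc7a3 (0, 0.230 and 0 CPM to 22.1 ± 5.36 CPM), Slc43a3 (0.716, 1.15 and 0 CPM to 16.4, 25.9 and 25.2 CPM) and Slc7a6 (log2 change 1.02). Slc7a3 is a cationic amino acid carrier of the same family as Slc7a1. Among the falls, Slc43a2 (LAT4), a relative of Slc43a1, went from 163 ± 37.0 to 21.0 ± 5.36 CPM (SD, n = 3 each, log2 change -2.96, edgeR adjusted p = 6.03e-06). The lysosomal transporter genes Pqlc2 and Slc38a9 fell (log2 changes -1.98 and -1.46). Slc7a2, a fall with no reads in the stimulated samples, stays below the median of the list when set at its bound of 3 reads, so that median is the same. The summed macrophage markers given above were lower in the same samples, from 3308 to 6842 CPM to 26.4 to 33.9 CPM, and their part in these falls was not tested.

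Of 11 tested mitochondrial amino acid carriers, 4 were called higher, 3 lower and 4 neither way, with a median of 0.06, and these shares are near those of all tested genes. Of the 3 lower, 2 (Sfxn3 and Slc25a2) met the filter fully only in naive cells. Without naive replicate 3 or stimulated replicate 2, 1 gene was called lower. Slc25a13, the aspartate-glutamate carrier, rose from 9.12 ± 1.79 to 111 ± 17.9 CPM (SD, n = 3 each, log2 change 3.60, edgeR adjusted p = 3.85e-07). Sfxn1, the mitochondrial serine carrier, rose by 2.46 log2 units and Slc25a15, the ornithine carrier, by 2.06. Sfxn2 fell by 0.44 on the log2 scale with alleles summed (adjusted p = 0.0251), and passed on neither the 129 allele (-0.57, adjusted p = 0.147) nor the Cast allele (-0.43, adjusted p = 0.116). Slc25a44, the mitochondrial carrier of branched-chain amino acids, was at 82.3 ± 6.61 and 85.8 ± 1.13 CPM (SD, n = 3 each, log2 difference 0.06, adjusted p = 0.625), and it too was named after its value was seen.

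Genes of branched-chain amino acid breakdown, the steps after the transaminases, held 13 rises and 3 falls among 23 tested, with a median of 0.37 log2 units. Dbt and Dld, subunits of the branched-chain ketoacid dehydrogenase, rose from 52.0 ± 4.11 to 95.5 ± 7.93 CPM and from 146 ± 25.1 to 298 ± 16.3 CPM (SD, n = 3 each, edgeR adjusted p = 1.09e-04 and 9.63e-05). Bckdhb, a further subunit, also rose (log2 change 1.12, adjusted p = 0.00762) and was named after its value was seen. Bckdk, the kinase that switches this same complex off, rose by 1.12 log2 units (adjusted p = 2.48e-04). Ppm1k, the phosphatase that acts against this kinase, rose by 0.40 log2 units (adjusted p = 0.00699) and was also named after its value was seen. The falls, named after their values were seen, were Bckdha, another subunit of the complex (log2 change -1.14), Mccc1 (-0.81) and Aldh6a1 (-0.71). Of the 4 subunit genes of the complex, 3 rose and Bckdha fell.

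Genes of the ATF4 pathway and known amino acid stress targets held 15 genes called higher and 2 lower among 20 tested, with a median of 2.35 log2 units. Of these, 5 met the filter on low counts fully in only 1 group (Atf3, Cth, Nupr1 and Pycr1 after CpG, Jdp2 before it). Among the other 15, 11 rose and 1 fell, with a median of 2.27. Mthfd2, of mitochondrial folate metabolism, rose from 15.7 ± 3.58 to 377 ± 98.9 CPM (SD, n = 3 each, log2 change 4.58, edgeR adjusted p = 8.14e-07). Atf3, a stress-induced transcription factor gene, was at 3.19 ± 1.16 CPM before and 71.5 ± 10.4 CPM after CpG (SD, n = 3 each). Asns, asparagine synthetase, was at 6.45, 14.1 and 14.3 CPM in naive and 96.6, 284 and 148 CPM in stimulated samples (log2 change 3.93, adjusted p = 4.70e-04). Stimulated replicate 2 was the highest sample for Asns, Mthfd2 and Atf3. With alleles summed it was also the highest for Bcat1, Slc1a4, Slc7a5, Atf4, Slc7a1 and Slc3a2, and not for Slc1a5 or Slc38a2. The genes called lower, named after their values were seen, were Ddit4 (-2.53, adjusted p = 0.0255) and Jdp2 (-1.56). The groups overlapped for both. Naive replicate 2 lay below stimulated replicate 2 for Ddit4 (15.4 and 20.9 CPM) and for Jdp2 (2.76 and 3.79 CPM). With the replicate block no gene of this list fell, nor without naive replicate 1, naive replicate 3 or stimulated replicate 1, while 4 fell without naive replicate 2 and 1 without stimulated replicate 3.

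Genes of eIF2 and its kinases, which set ATF4 translation, held 9 rises and 2 falls among 14 tested, with a median of 0.34. The rises numbered 6 with DESeq2, 6 to 7 when each sample was left out, and 2 at a minimum log2 fold change of 1. The falls stayed at 2 in each of these. Eif2s1, the eIF2 subunit that is phosphorylated, rose from 25.1 ± 3.09 to 121 ± 9.02 CPM (SD, n = 3 each, log2 change 2.26, edgeR adjusted p = 6.02e-07). Eif2b1 and Eif2b4, of its exchange factor, rose by 1.58 and 1.15 log2 units. Eif2ak3, the kinase PERK, fell from 306 ± 11.7 to 101 ± 5.39 CPM (SD, n = 3 each, log2 change -1.60, adjusted p = 7.60e-07). Ppp1r15a, a phosphatase subunit that acts against the kinases, fell by 2.84 on the log2 scale, and its naive samples were at 196, 94.9 and 253 CPM. The other kinases and Ppp1r15b were named after their values were seen. Eif2ak2 and Eif2ak1 rose (log2 changes 0.57 and 0.27, edgeR adjusted p = 0.00388 and 0.0367), and Eif2ak4 did not pass (-0.26, adjusted p = 0.302). Ppp1r15b, another phosphatase subunit, rose by 0.29 log2 units (adjusted p = 0.0239).

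Genes of amino acid sensing upstream of mTORC1 held 7 genes called higher and 9 lower among 30 tested, with a median of -0.25. Of the 9, 2 (Rragd and Fnip2) met the filter fully only in naive cells, which leaves 7 and 7 of 28. Lars, the leucyl-tRNA synthetase, rose from 173 ± 27.5 to 733 ± 106 CPM (SD, n = 3 each, log2 change 2.08, edgeR adjusted p = 2.33e-06). Lamtor5 and Seh1l rose by 1.08 and 1.01 log2 units. Sesn1, which encodes Sestrin1, a negative regulator of mTORC1, was at 589.6, 227 and 646 CPM in naive and 37.3, 27.7 and 43.5 CPM in stimulated samples, a fall of 3.75 on the log2 scale (adjusted p = 2.84e-04). Rheb, the direct activator of mTORC1, and Flcn, of the folliculin complex, fell (log2 changes -0.97 and -0.81).

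**Figure D4:**
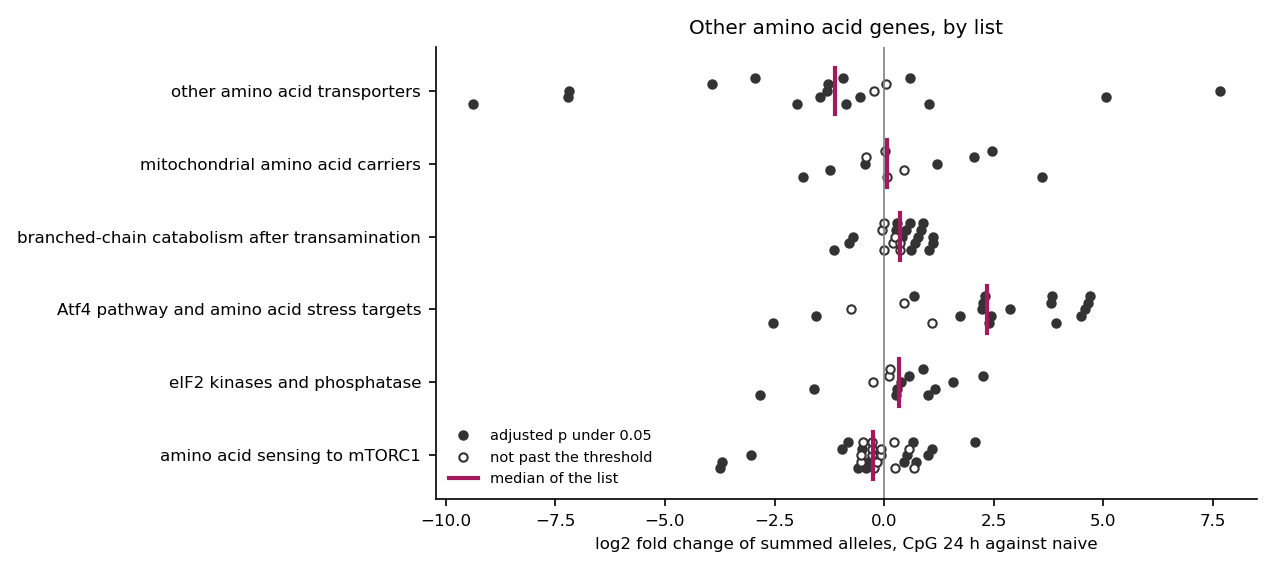
Change from naive to stimulated cells (log2 fold change, alleles summed) of every tested gene in the 6 lists, 1 point per gene, filled where it passed an edgeR adjusted p of 0.05, with a line at each median. The ATF4 pathway genes lie mostly to the right, with a median of 2.35, and the other amino acid transporters mostly to the left, with a median of -1.11.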

How the data were processed

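The deposited files are raw counts of reads per gene, 1 table per strain genome and sample (12 tables). The submitters' processing notes name STAR, featureCounts from Subread 2.0.0 and mm10; per the labels' protocols the libraries were stranded total RNA. How reads were assigned to a strain is not given in the sources used here. Unnamed genes took 5.10% to 7.59% of gene reads for 129 and 14.4% to 19.7% for Cast, and 48.1% to 67.1% and 44.5% to 62.1% of reads lay in no feature; these and unassigned totals stayed out of library sizes.

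Counts were tested with edgeR 4.0.16 in R 4.3.3 (filterByExpr, TMM, robust quasi-likelihood test, Benjamini-Hochberg over all tested genes at 0.05) in the 129 tables, in the Cast tables and on their sum for genes matched by name and chromosome. Allele ratios were tested on autosomal genes in 1 fit of the 12 allele libraries with a term per sample, 1 library size per sample, and allele by group terms. Cast shares were compared by exact two-sided permutation (scipy 1.17.1), with Wilson intervals that cover counting error only. CPM are TMM-scaled. Only the main CpG fits and the main allele fit were run on simulated data with 200 changed genes, none of them of low count. The simulation used a fixed spread and no pairing of samples, and its outcome is not given here.

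Same-numbered naive and stimulated samples deviated together (correlations 0.443 to 0.608 in the 129 tables, 0.161 to 0.246 for Cast and 0.153 to 0.206 for the sum), so the numbers were taken to pair the samples, a pairing that comes from the replicate numbers in the labels and these values. Alternatives were DESeq2 1.42.0, library totals, no filter, a replicate block, a minimum log2 fold change of 1, own-total allele scaling, at least 20 reads in every sample, and leaving out each sample. No pair of replicates agreed within sampling noise.

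The genes and lists were chosen with earlier results of these data known. Besides the 10 genes, each list is described by up to 3 rises and 3 falls, those of largest size among called genes that average 100 reads or more per sample and whose groups do not overlap. The other 12 samples of the series were not analysed here.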

Additional observations from a re-analysis of the deposited data

How the results depend on the processing

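Requiring a minimum log2 fold change of 1 left 1 of 7 genes called on the 129 allele (Slc7a5) and 2 (Slc7a5 and Slc1a4) on the Cast allele and with alleles summed, a stricter question by construction. At that minimum 2525 of 10581 tested genes were called on the 129 allele, 2827 of 10365 on the Cast allele and 3095 of 10343 summed. In the branched-chain breakdown list this minimum left 0 of the 13 rises and 0 of the 3 falls. Leaving out each sample gave 3 to 5 genes on the 129 allele, 5 to 6 on the Cast allele and 5 to 6 summed. Among genes tested for an allele difference, at least 20 reads in every sample left 6 genes, with 2 called in naive and 3 in stimulated cells. At that setting 2151 and 2239 of all 7784 tested genes were called in naive and stimulated cells, in either direction. Own-total scaling gave 3 in stimulated cells, where 2597 of all 9783 tested genes were called in either direction. Leaving out each sample gave 3 to 5 in naive cells, 3 to 5 in stimulated cells and 0 to 1 for the change of the ratio, which was 3 with the replicate block by allele (2 without Bcat1). The cause was not tested.

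Ratios that changed sign, none of them called, were Slc3a2 in naive cells (-0.029), Slc7a5 (-0.088) and Slc38a2 (-0.16) in stimulated cells under own-total scaling. Leaving out each sample gave -0.035 (without stimulated replicate 3) to 0.033 for Slc38a2 in stimulated cells, -0.73 to 0.071 (without stimulated replicate 1) for the change of the Atf4 ratio, and -11.2 to 1.58 percentage points (without stimulated replicate 1) for its Cast share. Beyond the calls given above, the replicate block changed no other call of the 10 genes. DESeq2, library totals and no filter left every count of called genes among the 10 within 1.5 times. Low read counts limit Slc43a1, Bcat2 and the naive Bcat1 and Slc1a4 values.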
